A study of Mus musculus with 8 samples.

Results

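Kinesin and dynein motor genes were taken as all genes whose symbol begins with Kif and a digit, with Klc and a digit, with Dync1 or Dync2, or with Dynl. In the gene names of the deposited tables, 62 genes met this rule, of 55188 genes listed in the control tables. Of the 62, 58 were protein-coding, 3 were pseudogenes and 1 was an antisense transcript of Kif16b. Expression was compared for 42 of them, made up of 22 kinesin heavy chains, 4 kinesin light chains and 16 dynein subunits, which averaged at least 1 FPKM (fragments per length of transcript and per sequencing depth) over the 8 libraries. Another 14 were in both kinds of table but below that level, and 6 could not be matched between the tables. The minus-end kinesins Kifc1, Kifc2, Kifc3 and Kifc5b, whose names carry a small c, fall outside the letters of the rule and are given beside the members.

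The libraries came from the hippocampus of C57BL/6 mice and formed 4 groups of 2. One held CRISPR knockouts of Pyk2 (KO), another CRISPR mutants whose Pyk2 carries the Y402F change (Y402F), and the other two held the wild-type mice labelled as controls for the knockout (KO controls) and for the mutant (Y402F controls). Pyk2, the product of Ptk2b, is a calcium-sensitive tyrosine kinase, and Y402F replaces the tyrosine that the kinase phosphorylates on itself. The study addressed the part of Pyk2 and of this site in contextual fear memory. All 8 samples, the wild-type ones included, are labelled as transgenic mice, and age, sex, the extent of the deletion and the number of animals behind a library are not stated there. Nothing states that the libraries of a group came from separate animals. The sex patterns given below differ within each mutant group, so the libraries of a mutant group did not come from the same animal. Within each control group the patterns are alike, and this remains unknown. A p-value reflects only how far these libraries spread, which in the control groups may be technical.

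Kinesins and cytoplasmic dynein are motors that use ATP to walk along microtubules, most kinesins toward the plus end and dynein toward the minus end. Since axonal microtubules point their plus ends away from the cell body, kinesins carry synaptic vesicle precursors, mitochondria and membrane proteins outward, and dynein returns endosomes and signals to the soma. Light and intermediate chains link the heavy chains to cargo, and a further set of kinesins works on the mitotic spindle or shortens microtubule ends.

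Mutant libraries held between 5756180 and 6017219 expected counts, and the control tables hold no counts, so the depth behind a control value is unknown. Ptk2b stood at 55.8 and 68.4 scaled FPKM in KO and between 307 and 394 in the other 6 libraries, so its level followed the labels. The scaled FPKM used throughout is the deposited FPKM divided by 1 factor per library that brings the typical gene to a common level. Xist and Ddx3y showed a female pattern in the first KO, the first Y402F and both KO control libraries and a male pattern in the others. The summed level of 8 choroid plexus markers lay between 39.6 and 54.0 in 5 libraries, against 751 in the second Y402F library and 1140 and 1170 in the Y402F controls. The summed level of 6 neuronal markers was 2950 to 3070 in the controls and 3700 to 3850 in the mutants, and none of these 6 was at 0 in any library.

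In the hippocampus the most abundant motor transcripts were those of axonal transport and of the dynein light chains. In both mutant groups Kif5a, a neuronal kinesin-1 heavy chain, led at a mean of 489 scaled FPKM, followed by the dynein light chain Dynlrb1 at 459 ± 41.0 in KO and 441 ± 16.0 in Y402F (SD, n = 2). The light chain Klc1, Dynll2, the vesicle motor Kif1a and Dynll1 came next in both. In KO controls the order began with Klc1 at 700 ± 158, Dynll1 at 646 ± 30.1 and Dynlrb1 at 511 ± 13.5, and in Y402F controls with Dynll1 at 631 ± 24.8, Klc1 at 605 ± 56.2 and Dynlrb1 at 547 ± 3.12 (SD, n = 2). The libraries of Klc1 overlapped those of Dynll1 in both control groups, so the order of these neighbours was not resolved. The top of the list thus differed between mutant and control tables, which were also made in different ways. Summed over the 56 motor genes matched between the tables, the level was 2569 to 2705 in the mutant libraries and 3648 to 4057 in the control libraries.

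**Figure D1:**
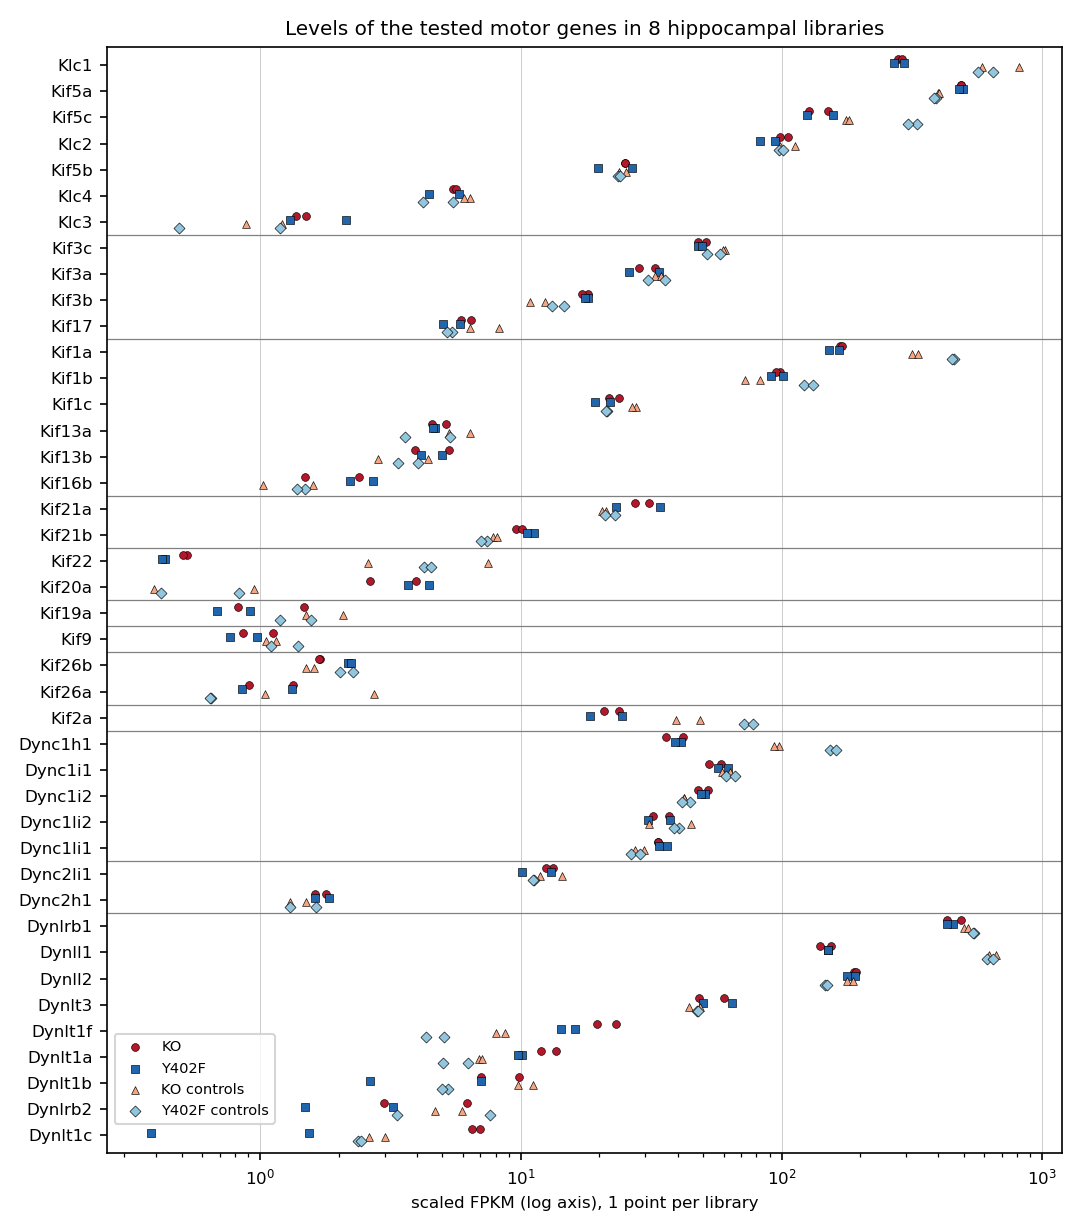
Scaled FPKM on a log axis for the 42 tested motor genes, 1 point per library, with grey lines between families. Kif5a lies between 386 and 497 in all 8 libraries, whereas Dynll1 lies between 140 and 155 in the mutants and between 613 and 667 in the controls.

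The 14 genes below the level tested were mostly kinesins of cell division, among them Kif11, Kif15, Kif18a, Kif20b, Kif23 and Kif4, and no value of theirs exceeded 1.65 scaled FPKM in any library. The summed level of 6 markers of dividing cells was likewise low, between 0.926 and 3.67. Kif12, Kif2b, Kif22-ps and Kif16bos were listed at 0 in the controls and were not matched in the mutant tables.

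Between KO and Y402F, the groups that share 1 kind of table, no motor gene was called. With edgeR's quasi-likelihood test on the expected counts and Benjamini-Hochberg adjustment, 0 of 42 members had an adjusted p under 0.05, against 0.00771% of the 12973 genes tested. DESeq2 and limma also called 0 of 42, and 2 members had an unadjusted p under 0.05 in edgeR. The median log2 difference of KO against Y402F over the 42 was 0.03, beside -0.01 over all genes tested. For 35 of the 42 the 95% interval of the difference stayed within a 2-fold change either way, so the data bound most of these differences without showing that the levels were equal.

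Among the kinesin-1 genes, which move cargo along axons, the heavy chain Kif5a was at 488 and 489 scaled FPKM in KO and 497 and 481 in Y402F. Its log2 difference was -0.00 with a 95% interval from -0.18 to 0.17, the narrowest of the family. Kif5b, the heavy chain that is also common outside neurons, was at 25.1 and 25.2 in KO and 26.7 and 19.8 in Y402F, and its groups overlapped. For Kif5c, the second neuronal heavy chain, the values were 151 and 128 in KO and 157 and 125 in Y402F, with a log2 difference of -0.01 (95% interval -0.29 to 0.26). The libraries within each group of Kif5c lay further apart than the group means. The light chain Klc1 was at 280 and 290 in KO and 271 and 295 in Y402F, and Klc2 was at 98.4 and 106 in KO and 82.4 and 94.4 in Y402F. Both KO libraries of Klc2 stood above both Y402F libraries, but the log2 difference of 0.21 (SE 0.14) had an adjusted p of 1.0 in edgeR.

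The heterotrimeric kinesin-2 subunit Kif3a, a motor of dendrites and cilia, was at 32.6 and 28.3 scaled FPKM in KO and 33.9 and 26 in Y402F, with overlapping groups. Kif17, the kinesin-2 that carries NMDA receptor subunit NR2B in dendrites, was at 6.43 and 5.92 in KO and 5.01 and 5.82 in Y402F. Its KO libraries both stood above the Y402F libraries, by a log2 difference of 0.13 with a 95% interval from -0.29 to 0.54. In the kinesin-3 family, which carries synaptic vesicle precursors, Kif1a was at 168 and 171 in KO and 152 and 166 in Y402F, and Kif1b at 99.0 and 95.3 in KO and 101 and 90.8 in Y402F. Their log2 differences were 0.09 (95% interval -0.13 to 0.30) for Kif1a and 0.02 (95% interval -0.22 to 0.25) for Kif1b. Of the kinesin-4 genes, which slow microtubule growth, Kif21a was at 31.0 and 27.3 in KO and 34.2 and 23.1 in Y402F, and Kif21b at 9.62 and 10.1 in KO and 11.2 and 10.6 in Y402F. The groups of Kif21a overlapped and those of Kif21b did not, with a log2 difference of -0.14 (SE 0.14) for the latter. Kif2a, a kinesin-13 that removes tubulin from microtubule ends, was at 23.9 and 20.9 in KO and 24.4 and 18.4 in Y402F, again with overlapping groups.

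The dynein heavy chain Dync1h1, which holds the motor domain, was at 36.2 and 42.0 scaled FPKM in KO and 41.0 and 39.1 in Y402F, with a log2 difference of -0.03 (95% interval -0.30 to 0.23). The neuronal intermediate chain Dync1i1 was at 52.9 and 58.6 in KO and 57.2 and 62.1 in Y402F, and the light intermediate chain Dync1li1 was at 33.5 and 33.6 in KO and 34.0 and 36.4 in Y402F. Intervals of all 5 dynein-1 subunits lay within a 2-fold change. The hub light chain Dynll1 was at 155 and 140 in KO and at 151 in both Y402F libraries, and its close relative Dynll2 at 190 and 193 in KO and 179 and 192 in Y402F. Dynlrb1, a roadblock light chain, was at 488 and 430 in KO and 453 and 430 in Y402F. None of these 6 dynein genes passed the test between the mutants. The kinesin-14 Kifc2, a neuronal minus-end kinesin, was at 190 and 203 in KO and 172 and 218 in Y402F, with a log2 difference of 0.01 (SE 0.13).

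**Figure D2:**
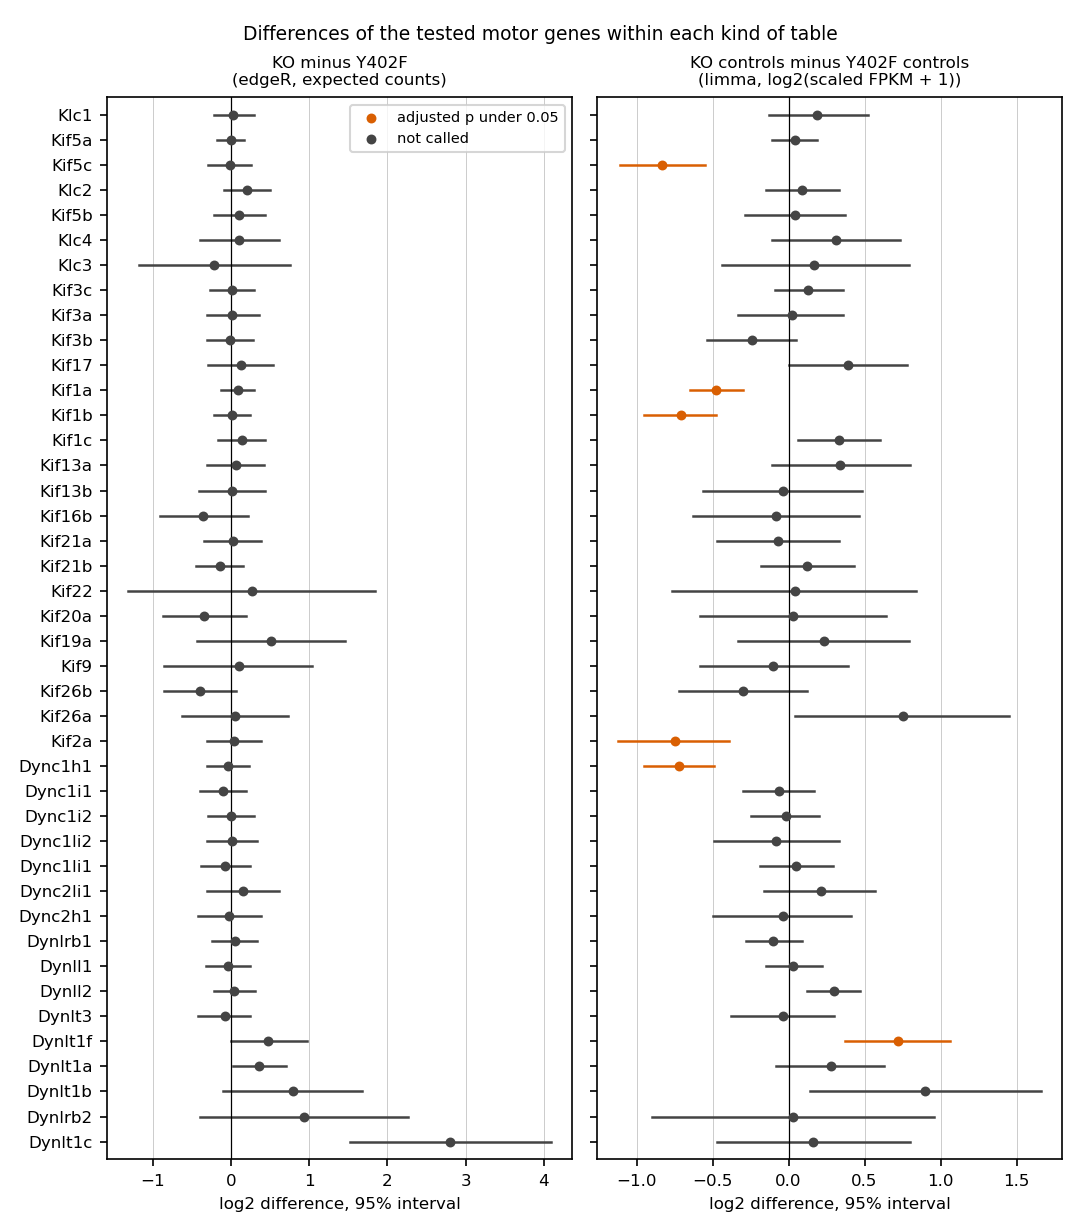
Log2 differences with 95% intervals for the 42 tested motor genes, KO minus Y402F on the left and KO controls minus Y402F controls on the right. Most intervals on the left are centred near the median of 0.03, with Dynlt1c apart at 2.80, and on the right the 6 called genes are drawn in orange.

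The largest difference between the mutants lay in the Dynlt1 genes, which encode a Tctex-type dynein light chain in near-identical copies. The coding bases of the copies can hardly be told apart, and the first 60 are shown from GENCODE M21. Base 21, the position that differs among the copies, is in capitals. Positions are counted from 1 at the A of the start codon.
Dynlt1a: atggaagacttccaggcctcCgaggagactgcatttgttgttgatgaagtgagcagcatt
Dynlt1b: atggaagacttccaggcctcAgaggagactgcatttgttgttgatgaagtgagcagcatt
Dynlt1c: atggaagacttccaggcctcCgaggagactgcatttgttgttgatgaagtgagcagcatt
Dynlt1f: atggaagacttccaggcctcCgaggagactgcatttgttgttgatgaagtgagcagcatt
Over all 339 coding bases Dynlt1a, Dynlt1c, Dynlt1f and the intronless pseudogene Dynlt1-ps1 were identical, and Dynlt1b differed from Dynlt1a by C21A alone. Dynlt3, the related single-copy gene, matched Dynlt1a at 218 of 339 bases (64.3%). The 4 coding copies lie on chromosome 17 of GRCm38, Dynlt1a at 6306340 to 6317500, Dynlt1b at 6430112 to 6436296, Dynlt1c at 6601671 to 6609774 and Dynlt1f at 6646602 to 6655900. Of the 50-base windows of their longest coding transcripts, 58.9% in Dynlt1a, 83.2% in Dynlt1b, 93.7% in Dynlt1c and 93.1% in Dynlt1f recurred in another copy. A short read from such a window cannot be assigned to 1 gene, and the expected counts of these genes were fractional.

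Dynlt1c was at 7.0 and 6.50 scaled FPKM in KO and 0.38 and 1.54 in Y402F, from expected counts of 25.74 and 24.48 against 1.40 and 5.87. The groups did not overlap, and the log2 difference was 2.80 (SE 0.61, 95% interval 1.52 to 4.09), with an adjusted p of 0.474 in edgeR. Over 10 alternative fits the adjusted p ran from 0.00291 to 1.0, and it passed the threshold without the second KO library (0.0386) and without the second Y402F library (0.00291). Dynlt1a was at 13.6 and 11.9 in KO and 10.1 and 9.72 in Y402F, a log2 difference of 0.36 (SE 0.16). Dynlt1f was at 19.6 and 23.1 in KO and 16.2 and 14.2 in Y402F, a log2 difference of 0.48 (SE 0.23). Dynlt1b was at 9.87 and 7.03 in KO and 2.63 and 7.04 in Y402F, where its groups overlapped. All 4 copies thus had higher means in KO, and none passed the test, while Dynlt3 was at 60.1 and 48.1 in KO and 64.3 and 50.2 in Y402F.

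In the wild-type pairs Dynlt1f was at 8.0 and 8.72 scaled FPKM in KO controls and 5.07 and 4.32 in Y402F controls. It was higher in KO controls by 0.72 on the log2 scale (SE 0.15), with an adjusted p of 0.0319 in limma. Dynlt1b was at 9.75 and 11.1 in KO controls and 5.25 and 4.97 in Y402F controls, a log2 difference of 0.90 (SE 0.33) that missed the threshold at an adjusted p of 0.127 in limma. Dynlt1a was at 6.92 and 7.09 in KO controls and 5.03 and 6.26 in Y402F controls, and Dynlt1c at 2.62 and 3.0 in KO controls and 2.37 and 2.43 in Y402F controls, with no call for either. Dynlt1-ps1 was listed at 13.1 and 17.7 in KO controls and at 8.35 and 9.19 in Y402F controls, and it could not be matched in the mutant tables. With the pseudogene listed in the control tables, the Dynlt1 values of the mutant and control tables cannot be compared copy by copy, and the tests of single copies across the tables are given further on with that limit.

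**Figure D3:**
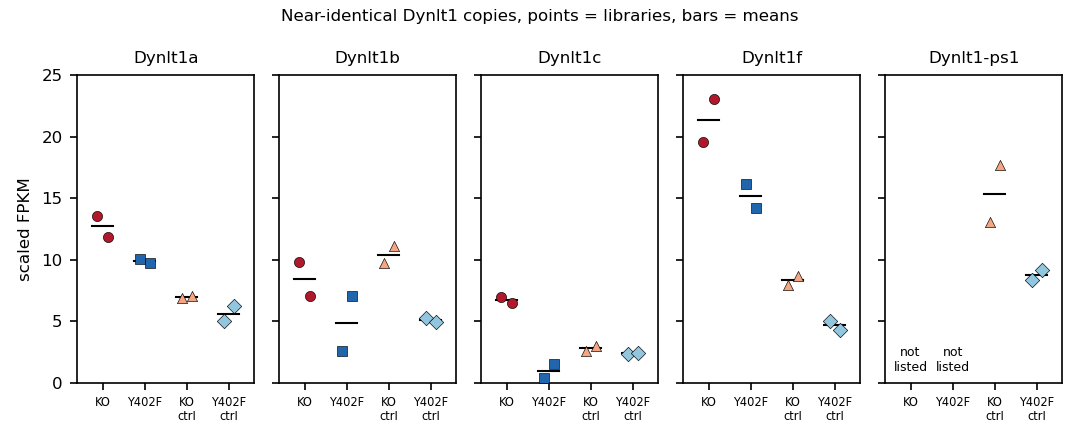
Scaled FPKM of the near-identical Dynlt1 copies in each library (points) with group means (bars). Dynlt1c reaches 7.0 and 6.50 in KO against 0.38 and 1.54 in Y402F, and the pseudogene Dynlt1-ps1 carries values of 8.35 to 17.7 in the controls.

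Between the wild-type groups, 5 motor genes were lower in KO controls than in Y402F controls and the light chain Dynlt1f was higher. With limma on log2(scaled FPKM + 1) and Benjamini-Hochberg adjustment, 5 of the 42 members were lower in KO controls, against 3.19% of the 12977 genes tested, and 1 was higher, against 4.86%. In all, 6 of 42 (14.3%) were called, against 8.05% of all genes. An unadjusted p under 0.05 in limma was found for 10 members (23.8%), below the 27.1% of all genes. The 5 lower members were the heavy chains Kif5c, Kif1a and Kif1b of outward transport, the microtubule depolymerase Kif2a and the dynein heavy chain Dync1h1. The median log2 difference over the 42 was 0.04, beside -0.02 over all genes tested, so the median member was not lower in KO controls.

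Kif5c was at 176 and 181 scaled FPKM in KO controls and 331 and 305 in Y402F controls. The groups did not overlap, and Kif5c was lower in KO controls by a log2 difference of -0.83 (SE 0.12), with an adjusted p of 0.0136 in limma. Kif1a was at 318 and 335 in KO controls and 460 and 450 in Y402F controls. Its difference of -0.48 (SE 0.08) was the smallest of the 5 and had an adjusted p of 0.0156 in limma. Kif1b was at 72.2 and 82.8 in KO controls and 122 and 132 in Y402F controls, 1.64-fold higher in the latter, with an adjusted p of 0.0126 in limma. Kif2a was at 39.5 and 48.7 in KO controls and 71.5 and 77.8 in Y402F controls, a log2 difference of -0.75 (SE 0.16) with an adjusted p of 0.0323 in limma. Dync1h1 was at 97.8 and 93.6 in KO controls and 154 and 162 in Y402F controls, 1.65-fold higher in the latter, with an adjusted p of 0.0116 in limma.

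Apart from Kif5c, Dync1h1 and the light chain Dynlt1f, no kinesin-1 or dynein gene was called. Kif5a was at 397 and 401 in KO controls and 391 and 386 in Y402F controls, a log2 difference of 0.04 (95% interval -0.11 to 0.19), and Kif5b was at 25.3 and 23.8 in KO controls and 23.5 and 24.1 in Y402F controls. The light chain Klc1 was at 588 and 812 in KO controls and 645 and 566 in Y402F controls, and Klc2 at 113 and 99.1 in KO controls and 98.2 and 101 in Y402F controls, with overlapping groups for both. The dynein intermediate chain Dync1i1 was at 58.9 and 63.2 in KO controls and 61.4 and 66.3 in Y402F controls, a log2 difference of -0.06 (95% interval -0.30 to 0.17). Kif3a was at 32.7 and 34.5 in KO controls and 30.7 and 35.8 in Y402F controls, and Kif21a at 20.5 and 21.2 against 22.9 and 21.1. Within kinesin-1 and dynein-1 the called difference was thus carried by 1 of 7 and 1 of 5 genes. Kif17 stood at 8.26 and 6.41 in KO controls and 5.43 and 5.22 in Y402F controls, a log2 difference of 0.39 (SE 0.17) that missed the threshold at an adjusted p of 0.185 in limma. The hub light chain Dynll2 was at 178 and 188 in KO controls and 147 and 150 in Y402F controls, just outside the threshold at an adjusted p of 0.0513 in limma. Kifc3, a kinesin-14 found at cell junctions, was at 24.6 and 34.0 in KO controls and 16.3 and 16.9 in Y402F controls, higher by 0.77 on the log2 scale (adjusted p 0.0411 in limma). Kifc2 was at 177 and 176 in KO controls and 161 and 164 in Y402F controls and was not called.

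**Figure D4:**
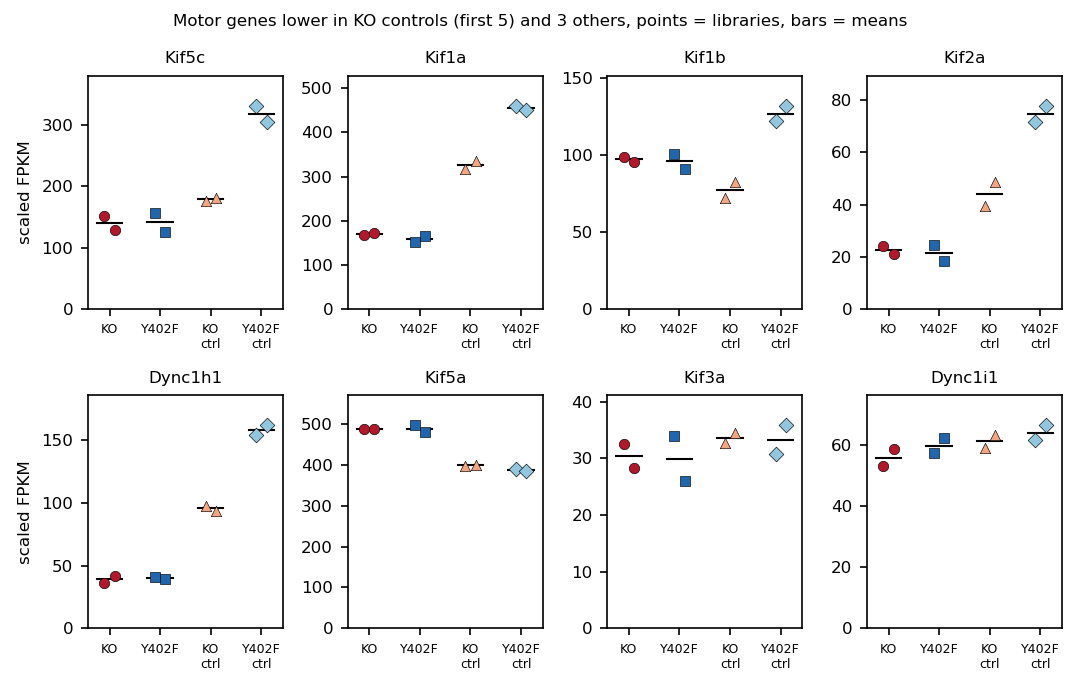
Scaled FPKM of the 5 motor genes lower in KO controls and of Kif5a, Kif3a and Dync1i1 in each library (points) with group means (bars), on axes that start at 0. In the first 5 panels both Y402F control libraries lie above both KO control libraries, as for Dync1h1 at 154 and 162 against 97.8 and 93.6.

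The 5 lower genes had transcripts of 3975 (Kif2a), 6867 (Kif5c), 8226 (Kif1a), 10226 (Kif1b) and 14398 bases (Dync1h1) in the mutant tables. All 5 lay above the median of 3889 over the 42, Kif2a only slightly. Members that were not called included Kif5a at 6333 bases and Kif21b at 9119. Across the 42 members the Spearman correlation of transcript length with the log2 difference was -0.34, and over all 12977 genes it was -0.40; the points share their libraries, and the value is a description. The long nuclear RNA Malat1 was at 8.32 and 8.92 scaled FPKM in KO controls and 49.7 and 51.9 in Y402F controls, and Meg3 at 17.7 and 22.8 against 80.7 and 71.5. Both KO control libraries had the female pattern and both Y402F control libraries the male one, so the sex pattern and the line coincide in these 4 libraries. Each mutant group held both patterns, so a term for the pattern in the fit of all 8 libraries was estimated from the mutant libraries alone. Such a term cannot separate the pattern from the line in the controls. With it the 5 lower genes were still called, at adjusted p-values in limma of 0.00558 (Kif5c) to 0.0319 (Dync1h1). Dynlt1f was not called with this term, at an adjusted p of 0.0774 in limma. The markers also differed, with choroid plexus at 49.0 and 48.2 against 1140 and 1170 and oligodendrocytes at 4340 and 4460 against 2790 and 2820, both given as KO controls against Y402F controls. The summed markers of dentate granule cells were at 54.9 and 56.4 in KO controls and 82.5 and 82.1 in Y402F controls. The part of length, of these markers and of the choroid plexus in the motor genes was not tested, and in bulk tissue fewer cells of a type and less RNA per cell cannot be told apart.

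None of the 6 calls held in every alternative fit, and without the intensity trend in limma all 6 were lost. Without the first Y402F control library Kif5c was lost, without the second Dync1h1, and without the first KO control or the second Y402F control library Kif1b. Kif1a lost its call without any 1 of the 4 control libraries, and Kif2a and Dynlt1f lost theirs without any 1 of the KO, KO control or Y402F control libraries. The number called ran from 1 to 8 when 1 library was left out.

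The promoters of these genes were read to show what lies upstream of the members called lower. RefSeq gives 150 bases before the first listed start, here on GRCm38.p6. Capitals mark 2 motifs searched on both strands, the GC box GGGCGG (reverse CCGCCC) and the cAMP response element TGACGTCA, which is its own reverse. The window of Kif1a reaches into its first exon in GENCODE M21 and is not shown. For Kif1b, Kif2a and Dync1h1 the bases shortly after the RefSeq start were not found in a GENCODE M21 transcript. Their windows therefore need not adjoin the transcripts that were measured.
Kif5c chr2:49619136-49619285 (+): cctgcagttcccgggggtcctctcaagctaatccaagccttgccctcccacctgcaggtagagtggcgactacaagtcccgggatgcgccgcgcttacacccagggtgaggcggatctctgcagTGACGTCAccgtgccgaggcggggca
Kif1b chr4:149307734-149307883 (-): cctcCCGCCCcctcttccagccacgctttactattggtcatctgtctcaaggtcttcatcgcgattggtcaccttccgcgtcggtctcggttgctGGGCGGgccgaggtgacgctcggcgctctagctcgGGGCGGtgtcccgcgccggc
Kif2a chr13:107022356-107022505 (-): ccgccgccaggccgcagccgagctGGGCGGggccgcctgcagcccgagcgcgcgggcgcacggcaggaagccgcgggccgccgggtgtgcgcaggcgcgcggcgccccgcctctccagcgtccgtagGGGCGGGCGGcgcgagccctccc
Dync1h1 chr12:110601245-110601394 (+): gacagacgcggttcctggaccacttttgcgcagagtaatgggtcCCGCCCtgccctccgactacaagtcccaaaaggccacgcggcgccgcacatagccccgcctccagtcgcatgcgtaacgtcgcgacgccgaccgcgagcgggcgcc
The GC box occurred 3 times in Kif1b, 3 times in Kif2a (2 of them overlapping), 1 time in Dync1h1 and not in the windows of Kif5c and Kif1a, so neither motif was common to the 5. Over 27025 promoters of this length, 29.0% held a GC box and 1.44% the cAMP response element. Of the 42 tested members 30 had an entry, of which 21 held a GC box and 3, Kif5c, Kif17 and Klc1, the cAMP response element. The GC content of the shown windows was between 65.3% and 85.3%. A match is a description of the letters and not evidence of a bound site.

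Each mutant was also compared with its own wild-type controls, a comparison in which genotype and the kind of table cannot be told apart. Marker levels moved with these groups as well. The summed level of 6 neuronal markers was higher in the mutants, at 3700 to 3850 against 2950 to 3070 in the controls. The summed level of 6 astrocyte markers was 1070 to 1150 in the mutants and 1560 to 2120 in the controls, and that of 6 oligodendrocyte markers was 2790 and 3340 in KO against 4340 and 4460 in its controls and 2530 and 2840 in Y402F against 2790 and 2820 in its controls, with none of these markers at 0 in any library. Their part in the motor genes was not tested. In KO, limma called 7 of 42 members higher and 6 lower than in KO controls, against 16.6% and 21% of all genes tested. In Y402F it called 7 higher and 10 lower than in Y402F controls, against 13% and 19.3%. The shares of members called were 31.0% in KO, below the 37.6% of all genes, and 40.5% in Y402F beside 32.3%. The Y402F count fell from 17 to 11 without the first or without the second Y402F control library. The split depended on scaling. Without it the median of all genes moved to -0.12 in both lines and the counts became 5 higher and 10 lower in KO and 3 and 12 in Y402F, and with quantile normalization they were 11 and 6 in KO and 9 and 8 in Y402F. The genes called in 1 line or both numbered 18, of which 12 passed in both lines, 10 of them in the same direction; the copies Dynlt1a, Dynlt1c and Dynlt1f are among the 12.

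Several large falls were called in both lines. Dynll1 was at 155, 140, 151 and 151 scaled FPKM in the mutant libraries and at 667, 624, 613 and 649 in the controls, lower by log2 differences of -2.12 in KO (SE 0.08, adjusted p 8.82e-07 in limma) and -2.05 in Y402F (SE 0.08, adjusted p 1.17e-06). The mutant tables give Dynll1 a transcript of 2037 bases, whereas GENCODE M21 holds coding transcripts of 729 and 2030 bases, and an FPKM value depends on the length used. The length behind the control values is not known, and its part in the difference was not tested. Klc1 was at 280 and 290 in KO against 588 and 812 in its controls, and at 271 and 295 in Y402F against 645 and 566 in its controls. It fell by 1.27 on the log2 scale in KO (adjusted p 0.000268 in limma) and by 1.09 in Y402F (adjusted p 0.000667). Kif22, a chromosome-arm kinesin, was at 0.522 and 0.507 in KO, 0.432 and 0.421 in Y402F, 7.46 and 2.59 in KO controls and 4.24 and 4.51 in Y402F controls, and on the log2 scale it fell by 1.86 in KO and by 1.91 in Y402F. The mutant values of Kif22 rest on expected counts of 5 or 6 per library. Its deposited confidence bounds, scaled alike, were 0.353 to 14.6 and 0.0 to 6.02 in KO controls. In Y402F controls they were 0.0 to 8.53 and 0.136 to 8.88, and each of these ranges held the mutant values.

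Dync1h1, Kif1a and Kif2a, which also differed between the control groups, were lower in both mutants. Dync1h1 was 2.45-fold lower in KO and 3.95-fold lower in Y402F than in the respective controls, with mutant levels of 36.2 to 42.0 against 93.6 to 162 in the controls. Kif1a was 1.93-fold lower in KO and 2.86-fold lower in Y402F, with mutant levels of 152 to 171 against 318 to 460. Kif2a was 1.97-fold lower in KO and 3.49-fold lower in Y402F, with mutant levels of 18.4 to 24.4 against 39.5 to 77.8. Their adjusted p-values in limma were 0.0025 or less in each line. Kif5c was lower in Y402F by 1.17 on the log2 scale (SE 0.12, adjusted p 0.000209 in limma), and in KO its difference of -0.35 missed the threshold at an adjusted p of 0.0516. Exons of Dync1h1, Kif2a and 10 other tested members overlap a gene on the opposite strand (403 bases of Gm35558 in Dync1h1, 1229 bases of Dimt1 in Kif2a), and the sources do not state whether the counting used strand.

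Among the higher members, Kif20a, a kinesin of cytokinesis, was at 3.96 and 2.64 scaled FPKM in KO, 3.69 and 4.46 in Y402F, 0.946 and 0.390 in KO controls and 0.418 and 0.833 in Y402F controls. It rose by 1.37 (adjusted p 0.00462 in limma) and 1.65 (adjusted p 0.00211) on the log2 scale. Its exons overlap those of Cdc23 on the opposite strand over 1271 bases. The summed level of 6 markers of dividing cells was 0.926 to 1.06 in the mutants and 1.93 to 3.67 in the controls. Mki67, 1 of these markers, lay between 0.0842 and 0.355 in all 8 libraries. The part of the overlap or of dividing cells in the level of Kif20a was not tested. Kif5a was higher by 0.29 in KO (adjusted p 0.00819 in limma) and by 0.33 in Y402F (adjusted p 0.00528), with 481 to 497 in the mutants against 386 to 401 in the controls. Neither call of Kif5a held without scaling or without the intensity trend. Dynlt1a was higher by 0.78 in KO and 0.72 in Y402F, and Dynlt1f by 1.25 and 1.50, within the limits that the shared sequence sets. Kif3b, the kinesin-2 partner of Kif3a, was at 18.1 and 17.2 in KO and 10.8 and 12.4 in its controls, a rise of 0.57 (adjusted p 0.00952 in limma). In Y402F it was at 18.1 and 17.6 against 14.7 and 13.2, a log2 difference of 0.34 with an adjusted p of 0.0795. Kif21b, at 11.2 and 10.6 in Y402F and 7.40 and 7.06 in its controls, rose by 0.53 (adjusted p 0.0168 in limma), while in KO it was at 9.62 and 10.1 against 7.84 and 8.08.

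Smaller shifts in Y402F concerned the dynein light and light intermediate chains. Dynll2 was at 179 and 192 scaled FPKM in Y402F and 147 and 150 in its controls, higher by 0.32 on the log2 scale (adjusted p 0.015 in limma). Dync1li1 was at 34.0 and 36.4 in Y402F and 26.5 and 28.6 in its controls, higher by 0.35 (adjusted p 0.036 in limma). Dynlrb1 was at 453 and 430 in Y402F and 549 and 545 in its controls, a fall of 0.31 (adjusted p 0.0187 in limma). None of these calls held without the intensity trend. Dynll2 and Dync1li1 also lost theirs without scaling, and Dynlrb1 with quantile normalization. In KO, Dynll2 was at 190 and 193 against 178 and 188, Dync1li1 at 33.5 and 33.6 against 29.6 and 27.4, and Dynlrb1 at 488 and 430 against 502 and 521, with no call for any of them. Whether these genes responded differently in the lines is a matter of the difference of effects, given below with the test.

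In the main fit Kif1b was called in opposite directions in the lines. It was higher in KO than in its controls by 0.33 (adjusted p 0.0375 in limma). In Y402F it was lower than in its controls by a log2 difference of -0.40 (adjusted p 0.018 in limma). Mutant values of 90.8 to 101 lay between the KO controls at 72.2 and 82.8 and the Y402F controls at 122 and 132. The KO call was lost without scaling, without the intensity trend and in the fit of the 2 groups compared. The Y402F call was lost with quantile normalization and without the trend, so in none of these fits were both lines called. The tests also returned opposite signs for Dynlt1c, 1.02 in KO (adjusted p 0.0201 in limma) and -0.86 in Y402F (adjusted p 0.0437), but its level cannot be set apart from those of the other copies across the tables, and its transcript in the mutant tables, 693 bases, differed from the 2589 bases in GENCODE M21. In the 16 alternative fits of each line, 8 members kept their call in both lines throughout, namely Dync1h1, Dynll1, Dynlt1f, Kif1a, Kif20a, Kif22, Kif2a and Klc1, where the limit on single copies holds for Dynlt1f. Losses on other scaling or without the trend were given above for Kif5a, Kif1b, Dynll2, Dync1li1 and Dynlrb1. In Y402F, Kif21b lost its call without scaling, and Kif21b and Dync1li1 lost theirs in the fit of the 2 groups compared. Dynlt1c lost its call in both lines with a sex term and in KO with a smaller pseudocount. In Y402F it was also lost without the filter and in the fit of the 2 groups compared. The losses that follow came from leaving out 1 library. Calls in KO were lost for Kif5a without either KO control library, for Kif3b without the first KO or first KO control library, for Dynlt1c without either KO or the first KO control library, and for Kif1b without either KO, the first KO control or either Y402F control library. Calls in Y402F were lost without 1 of the Y402F control libraries for Dync1li1, Dynll2, Dynlrb1, Dynlt1c and Kif21b (either), Dynlt1a (the first) and Kif1b and Kif5a (the second). Leaving out the first Y402F library ended Dync1li1, Dynlt1c and Kif21b, leaving out the second ended Dync1li1, Dynll2, Dynlrb1 and Kif1b, and Dync1li1 and Dynlt1c were also lost without either KO or the first KO control library and Dynlt1c also without the second KO control library.

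**Figure D5:**
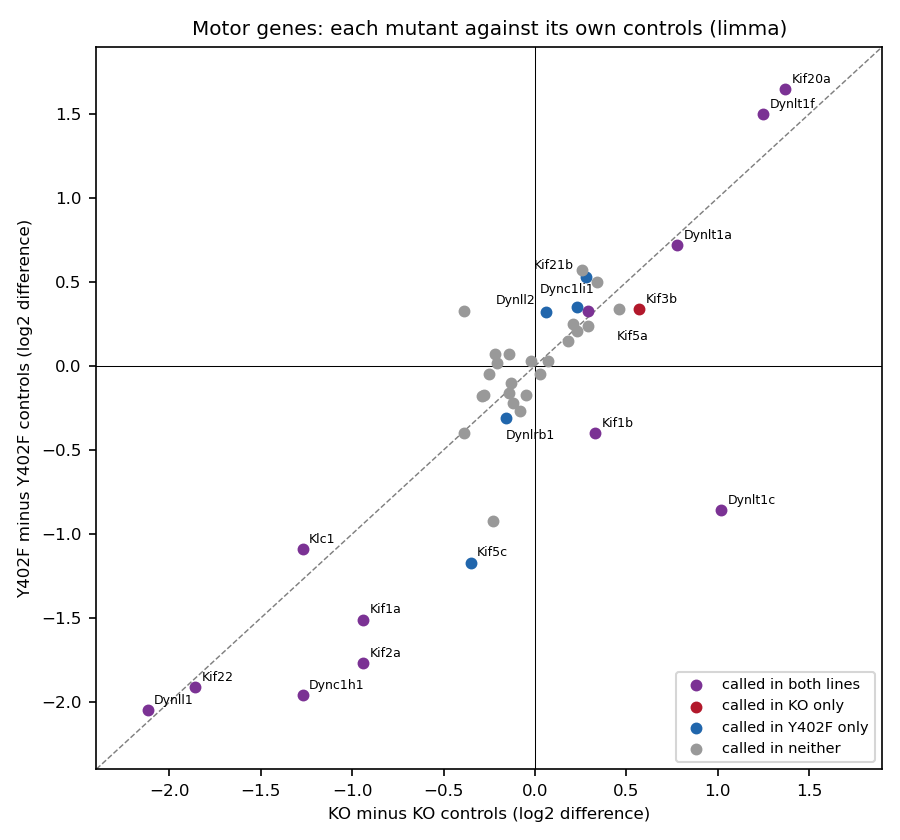
Log2 difference of each tested motor gene in KO against KO controls (horizontal axis) and in Y402F against Y402F controls (vertical axis), coloured by where it was called; the dashed line marks equal differences. Dynll1, Klc1 and Kif22 lie near the line at the lower left, Dync1h1, Kif1a, Kif2a and Kif5c lie below it, and Kif1b has opposite signs, as has Dynlt1c within the limit on its near-identical copies.

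In the difference of the mutant effects, a factor of processing common to both lines cancels on the log scale. For low genes it cancels only in part, since 1 was added before the log. It was called in 0 of 42 members by limma, beside 0.0308% of all genes. An unadjusted p under 0.05 was found for 7 members (16.7%), beside 1691 of the 12977 genes tested, a similar share. The 7 members were Kif1a at 0.57 (SE 0.11, adjusted p 0.136), Kif1b at 0.73 (SE 0.15, adjusted p 0.144), Dync1h1 at 0.68 (SE 0.14, adjusted p 0.15), Dynlt1c at 1.89 (SE 0.39, adjusted p 0.15), Kif5c at 0.82 (SE 0.17, adjusted p 0.152), Kif2a at 0.83 (SE 0.23, adjusted p 0.215) and Dynll2 at -0.25 (SE 0.11, adjusted p 0.374), all from limma. The limit on single copies holds for Dynlt1c, which is also a low gene. A positive value means that the level relative to controls was higher in KO than in Y402F. For the 5 genes lower in KO controls the direct log2 difference of KO against Y402F lay between -0.03 and 0.09, so the difference of effects was mostly that of the control groups. With a term for the sex pattern Kif5c was called, at an adjusted p of 0.0234 in limma, over a range of 0.0234 to 0.411 in its 15 alternatives. For Klc1 the difference of effects was -0.18 (95% interval -0.64 to 0.27) and for Dynll1 -0.07 (95% interval -0.33 to 0.19).

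The lists of genes that work with the motors were counted in the same comparisons. Between KO and Y402F, edgeR called 0 of 25 dynactin and dynein regulators, 0 of 29 kinesin adaptors and cargo linkers, 0 of 28 microtubule-associated proteins and 0 of 22 intraflagellar transport genes, and none had an unadjusted p under 0.05. Between the control groups limma called 0 of 25 dynactin and dynein regulators and 3 of 29 adaptors (10.3%), near the 8.05% of all genes, with the JNK scaffold Mapk8ip1 (0.54) and Plekhm2 (0.71), a lysosome adaptor of kinesin-1, higher and Dennd4a (-0.61) lower in KO controls. Of 28 microtubule-associated proteins 4 (14.3%) were called. Of these 1 was higher, the tubulin-binding Stmn3 at 0.50, and 3 were lower, Map1b at -0.56, Map7 at -0.64 and Clasp1 at -0.58, as log2 differences. Of the intraflagellar transport genes Ift81 (-1.43) was the single one called of 22 (4.55%). Unadjusted p-values under 0.05 were found for 10 of the 25 dynactin and dynein regulators, 6 of the 29 adaptors, 14 of the 28 microtubule-associated proteins and 9 of the 22 intraflagellar transport genes in this comparison, beside 27.1% of all genes.

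Against their controls, 5 dynactin and dynein regulators were higher and 5 lower in KO, and 4 higher and 8 lower in Y402F. The 4 genes with the smallest p in KO are named for each list, with log2 differences in KO and then in Y402F. The dynactin subunits Dctn6 (-1.09 and -0.69) and Actr10 (-1.46 and -0.84) and the dynein adaptor Bicdl1 (-1.75 and -1.49) were lower in both lines, and Rab11fip3 (0.53 and 0.52), which links dynein to recycling endosomes, was higher in both. Among the kinesin adaptors 7 were higher and 3 lower in KO and 8 higher and 4 lower in Y402F. Kidins220, a membrane cargo of kinesin-1 (-1.16 and -1.62), and the scaffold Lin7b (-1.22 and -1.01) were lower in both lines, and Htt (0.65 and 0.51) and the JNK scaffold Mapk8ip2 (0.61 and 0.68) were higher. Of the microtubule-associated proteins 16 of 28 were called in each line (57.1%), with 7 higher and 9 lower in KO and 5 higher and 11 lower in Y402F. The tubulin-binding Stmn4 (-0.88 and -0.48) and the plus-end proteins Clip1 (-1.02 and -1.41) and Mapre1 (-0.87 and -1.05) were lower in both lines, and Map1b, a microtubule-associated protein of axons, was higher (0.90 and 0.50). Of the 22 intraflagellar transport genes 3 were higher and 5 lower in KO and 0 higher and 7 lower in Y402F, with Ift46 (-2.03 and -1.57), Ift57 (-0.75 and -0.99) and Ift22 (-0.51 and -0.58) lower in both. Cluap1 was higher in KO by 0.56, and in Y402F its difference of 0.27 was not called. These shares stand beside 37.6% of all genes in KO and 32.3% in Y402F, and the kind of table enters them as it does the motor genes.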

How the data were processed

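Hippocampal RNA of 8 libraries was analysed from 2 kinds of gene table. For the mutants the authors deposited an expected count per gene, an estimate that divides reads fitting several genes, with a transcript length and an FPKM value. For the controls the authors deposited FPKM per gene with confidence bounds and without counts. The submitters' processing notes name Bowtie 1, HISAT and mm9 for every sample and, for the controls, also Cufflinks; the program behind the expected counts is not stated. Gene positions in the control files match GENCODE M21 on GRCm38, and that build is used for all positions.

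The tables were joined by gene symbol (17625 genes) or Entrez identifier (85), which gave 17710 genes, and FPKM was scaled by median-of-ratios factors over 11465 genes. Genes averaging at least 1 FPKM were tested. KO was compared with Y402F by edgeR 4.0.16 (quasi-likelihood test, TMM) on expected counts rounded to whole numbers. The other comparisons were fitted on log2(scaled FPKM + 1) in limma 3.58.1 with its intensity trend, 8 libraries in 4 groups with 4 residual degrees of freedom; fold changes on this scale understate the change of low genes. Benjamini-Hochberg adjustment ran over all genes tested (12973 and 12977), with a threshold of 0.05, and intervals are at 95%. DESeq2 1.42.0 was an alternative, as were other scalings, filters and pseudocounts, a replicate block, a sex term and leaving out each library, where the lone library of a group is assumed to vary like the others. The fits were tested on simulated data. Members were named freely, with values in all libraries for those called in any comparison and for a fixed set of main motors; of each partner list, up to 4 genes with the smallest p were named, against controls by the p in KO. The members and lists were chosen with earlier results of these data known. Replicate numbers did not pair the samples in the labels.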

Additional observations from a re-analysis of the deposited data

How the results depend on the processing

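Over 3066 values of single members under alternative fits, 170 changed sign, and none of these involved a called value. The number of members called in KO against KO controls (13) stayed between 11 and 18 over other pseudocounts, filters, scalings, no trend, a sex term and a fit of the 2 groups compared, and between 9 and 15 when 1 library was left out. In Y402F against its controls (17) it stayed between 12 and 17, and between 11 and 16 when 1 library was left out. Between the control groups (6) it was 0 without the intensity trend, 3 in a fit of the 2 groups compared, and 1 to 8 when 1 library was left out; the cause was not tested, apart from the fewer libraries in the latter fits. Over all genes that comparison fell from 1045 calls to 165 without the trend and 325 in the fit of the 2 groups. The difference of the mutant effects (0) became 1 with a term for the sex pattern, where 138 genes in all were called against 4, and was 0 in each fit without 1 library. KO against Y402F (0) was 0 to 1 when 1 library was left out and 0 in all other fits.

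Replicate numbers were tried as a pairing. With a replicate block 0 members were called between KO and Y402F, 6 between the control groups, 15 in KO, 17 in Y402F and 0 in the difference of effects. The correlation of deviations of same-numbered libraries was 0.204 between KO and Y402F, where the numbers coincide with the sex pattern, and between -0.0307 and 0.0491 for the other pairs of groups. Depth limits low genes such as Kif22, at 5 or 6 reads per mutant library.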
